A study of Drosophila melanogaster with 2 samples.

Results

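The 6 actin genes of *Drosophila* (*Act88F*, *Act57B*, *Act79B*, *Act87E*, *Act5C* and *Act42A*) were taken by their FlyBase identifiers from a table of 13931 genes measured in the indirect flight muscles (IFMs), the large fibrillar muscles that power flight. The control flies carried the myoblast driver *1151-Gal4* alone (genotype 1151/+, from a cross to w1118), and the *bs* KD flies carried the same driver with the RNAi line KK108659 (1151>bs[RNAi KK108659]), which targets the RA and RC transcripts of *blistered* (*bs*), the gene for the *Drosophila* SRF ortholog. Each genotype gave 1 library, dissected from 4 females that were 3 days old and reared at 29°C, so no difference has a replicate check and no test between genotypes was possible. The controls carried no RNAi transgene, and an effect of the transgene itself cannot be told apart from that of the knockdown. The knockdown was partial at the level of the whole gene: *bs* had 2.75 TPM (transcripts per 1000000) in control IFM and 1.80 TPM in *bs* KD, or 65.6% of the control, with a 95% counting interval of the ratio from 0.503 to 0.852. This gene-level value includes the RB transcript, which the RNAi line does not target. By qPCR of the targeted RA and RC transcripts alone, the authors reported a far stronger reduction in dissected IFMs.

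Actin is the protein of the thin filaments on which myosin pulls, and it also forms the cytoskeleton of every cell. Insects carry separate genes for muscle and cytoplasmic actins, and in *Drosophila* the muscle genes are divided among fiber types: *Act88F* serves the flight muscles, *Act79B* the tubular muscles such as those of the jump and the legs, and *Act57B* and *Act87E* mainly the body wall muscles of the larva. *Act5C* and *Act42A* encode the cytoplasmic actins. In mammals SRF binds CArG boxes near actin genes and activates them, and the libraries ask which actin transcripts differ when its fly ortholog is lowered in flight muscle.

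The 6 genes share the size of their product and differ in their structure around it. In the Release 6 annotation (BDGP6.54) each of their 13 transcripts holds a coding sequence of 1128 bases without the stop codon, or 376 codons. *Act88F* (FBgn0000047) lies on chromosome arm 3R from 15439969 to 15442177 on the plus strand, with 3 exons, of which 2 are coding. *Act87E* (FBgn0000046) lies on the same arm from 13425983 to 13428375 on the plus strand, with 3 transcripts and an uninterrupted coding sequence. *Act79B* (FBgn0000045) is on 3L from 21985210 to 21987190 on the plus strand, and its transcripts RA and RB differ by an intron of 76 bases in the 5′ UTR that is kept in RB. *Act57B* (FBgn0000044) is on 2R from 20944021 to 20946431 on the plus strand, with a coding sequence split over 2 exons. *Act42A* (FBgn0000043) is on 2R from 6013910 to 6015689 and is the 1 member on the minus strand. *Act5C* (FBgn0000042) is on the X chromosome from 5900861 to 5905399 on the plus strand, where 5 transcripts share the coding exon and have 3′ UTRs of 345 to 1571 bases. The map of the transcripts shows these forms to a common scale. Of the genes annotated across these spans, the snoRNA gene FBgn0065059 on the strand of *Act57B* and the long noncoding RNA gene FBgn0267151 opposite *Act87E* are not in the authors' table. The coding sequences of actin genes are alike, so reads from them are divided among the genes by the quantification, and how well the division worked was not tested.

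**Figure D1:**
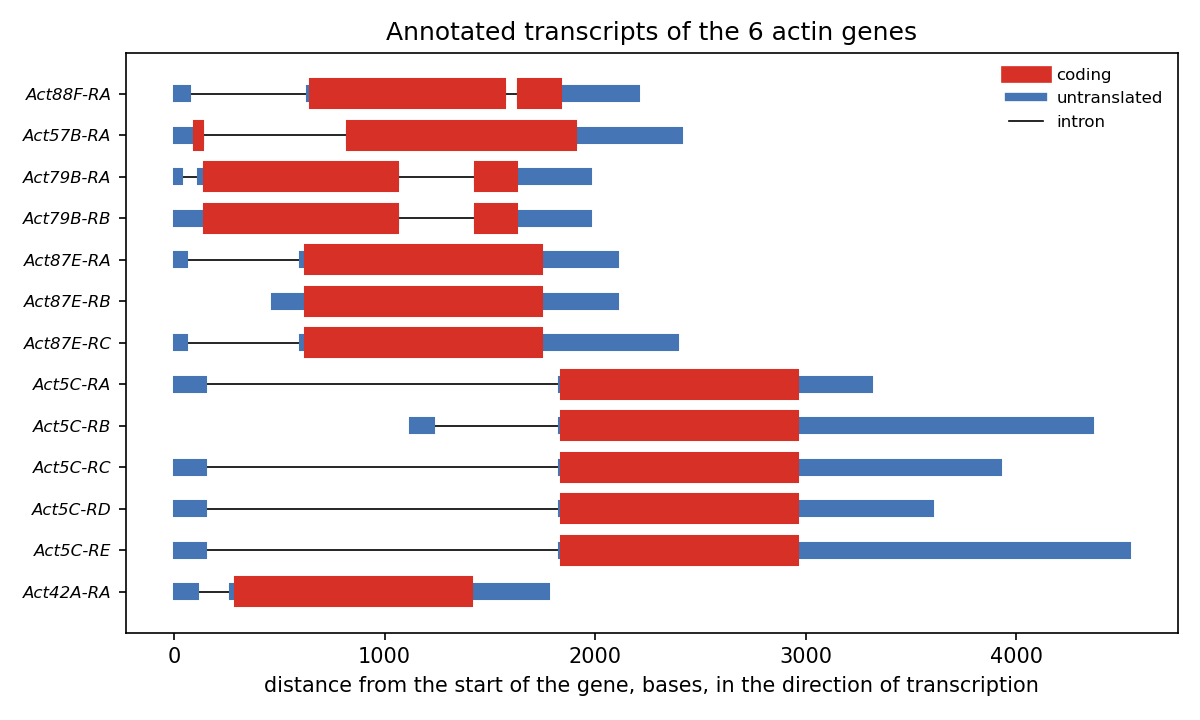
Annotated transcripts of the 6 actin genes, drawn to scale from the start of each gene (horizontal axis, bases in the direction of transcription), with thick red boxes for coding sequence, thinner blue boxes for untranslated exons and lines for introns. All 13 transcripts hold the same length of coding sequence, while *Act5C* has 5 transcripts with 3′ UTRs from 345 to 1571 bases.

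The level of *Act88F* was far below the control in *bs* KD, that of *Act57B* was far above it, *Act5C* was 1.86-fold lower, and *Act79B* and *Act42A* differed by less than their counting error. *Act87E* was at the limit of detection in both libraries. Counted by size, 5 members reached 1 TPM in one library or both, which is the detection rule used here, and 1 of these 5 was lower by 2-fold or more (*Act88F*) and 1 was higher (*Act57B*). Of all 6384 genes detected by that rule, 6.05% were lower and 9.38% were higher by that size, or 386 and 599 genes. After scaling by the median ratio these counts were 448 and 465. The size was taken on log2 of TPM plus 1, a scale that understates the change of genes with low levels. The median log2 ratio of the 1804 genes that had 10 TPM or more in each library was 0.13, and changes are given relative to this shift as well. All intervals are exact, rest on rounded estimated reads and cover counting error only. The libraries held 20955053 estimated reads in the control and 19767477 in *bs* KD.

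*Act88F* stood at 33116 TPM in control IFM and 7471 TPM in *bs* KD, from 898431 and 204105 estimated reads. It took 4.29% of all estimated reads of the control and 1.03% of those of *bs* KD. The *bs* KD level was 22.6% of the control level, with a counting interval of the ratio from 0.225 to 0.227. The log2 change was −2.15, or −2.28 relative to the shift. Among the 168 genes with at least 1000 TPM in the control, 2.98% were lower by 2-fold or more, and *whe* was the only gene of this class with a lower log2 change than *Act88F* (−5.08, from 1659 to 48.0 TPM; chosen after its values were seen). In this class the 5th and 95th percentiles of the log2 change were −0.64 and 0.38. *Act88F* still had more transcripts in *bs* KD than all other actin genes, and its level there was 237 times that of the next actin gene, against 839 times in the control. In bulk RNA, less RNA per fiber and fewer fibers cannot be told apart for a gene on its own. Of 6 contractile genes listed as enriched in flight muscle, 0 were lower by 2-fold or more. The share over all detected genes was 6.05%, at which 0 of 6 is a common count. *Tm1* was lowest, at a ratio of 0.620. The ratio was 1.26 for *fln*, 1.19 for *TpnC4* and 1.23 for *Strn-Mlck* (chosen after their values were known). Whether the number of fibers differed was not tested. The genes nearest to *Act88F* by level in both libraries, *ATPsynbeta*, a subunit gene of the mitochondrial ATP synthase (15280 and 13915 TPM), and *mt:ND1*, a complex I subunit gene of the mitochondrial genome (13710 and 12597 TPM), were far from it, at distances of 1.43 and 1.48 in log2 of TPM plus 1 over the 2 libraries.

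*Act57B* had the opposite difference. It stood at 2.08 TPM in the control, from 61.4 estimated reads, and at 31.5 TPM in *bs* KD, from 935 estimated reads. This is a 15.1-fold higher level, with a counting interval from 11.7 to 20.1. On the log2 scale with 1 TPM added the change was 3.40, with an interval from 3.05 to 3.79, and it was 3.27 relative to the shift. Of the 3965 genes with 1 to 10 TPM in the control, 7.09% were higher by 2-fold or more, and 2 had a larger log2 change than *Act57B*. These were *CG13026* (2.95 to 128.6 TPM) and *CG18853* (5.22 to 83.1 TPM), both chosen after their values were seen. By rank of level, *Act57B* moved from gene 4598 of the table to gene 1100. In absolute terms it remained a minor actin gene, since 31.5 TPM is less than the counting interval of *Act88F* in *bs* KD is wide (7439 to 7504 TPM).

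The genes whose levels in both libraries lay nearest to those of *Act57B* were *Scp2*, a sarcoplasmic calcium-binding protein gene (2.49 and 25.3 TPM), and *TpnC41C*, a troponin C gene of tubular muscle (1.96 and 21.3 TPM). Their distances on the same measure were 0.36 and 0.54. Of 4 contractile genes listed as enriched in tubular muscle, 2 were detected and both were higher by 2-fold or more, against 9.38% of all detected genes. They were *TpnC41C* and *Mlp84B*, a muscle LIM protein gene (1.12 and 3.59 TPM). The other 2 stayed under 1 TPM, with *TpnC47D* at 0.736 TPM in control IFM and listed at 0 in *bs* KD and *TpnC73F* at 0.449 and 0.0709 TPM. *Mlp84B*, *TpnC47D* and *TpnC73F* were named after seeing their values. The summed level of the list was 4.27 TPM in control IFM and 25.0 TPM in *bs* KD, and *TpnC41C* made most of the *bs* KD sum. *Act79B*, the actin gene of the tubular muscles, was not on this list and differed by less than its counting error (18.9 and 19.5 TPM, ratio 1.03). The part of tubular muscle in the *Act57B* difference was not tested.

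*Act79B* stood at 18.9 TPM in control IFM and 19.5 TPM in *bs* KD, from 501 and 517 estimated reads. The ratio was 1.03, with a counting interval from 0.912 to 1.17 that includes no difference. Its direction depended on the scaling, with a log2 change of 0.04 as deposited and −0.08 after scaling by the median ratio. The nearest genes by level were *Fdx1*, a ferredoxin gene (18.5 and 19.3 TPM) and *pHCl-1*, a chloride channel gene (19.0 and 20.4 TPM). The mean transcript length behind the *Act79B* values was closer to that of RA in *bs* KD. From TPM and reads, the mean effective length (the length less 99 bases in these files) was 1460 bases in the control and 1449 bases in *bs* KD, between the 1444 bases of RA and the 1520 bases of RB. If reads were divided over these annotated transcripts alone, RB made 21.1% of *Act79B* transcripts in the control (3.99 TPM) and 6.30% in *bs* KD (1.23 TPM), and RA had 14.9 and 18.3 TPM. Reads per transcript are not given in these files, so this split has no counting interval.

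*Act87E* was the member with the lowest level in both libraries. It stood at 0.755 TPM in control IFM and 0.208 TPM in *bs* KD, which is under the detection rule of 1 TPM. The values rest on 20.1 and 5.58 estimated reads. The Poisson intervals of these levels, 0.459 to 1.16 and 0.0821 to 0.487 TPM, overlap. The ratio was 0.276, and its own counting interval, from 0.0979 to 0.769, leaves out 1. The log2 change with 1 TPM added was −0.54. With so few reads the size of the difference is known only within a wide range. The effective length behind both values, 1468 bases, equals that of transcript RA, so the estimate placed the reads on RA in both libraries. *Lsp1gamma*, a larval serum protein gene (0.743 and 0.204 TPM) and *CG8611* (0.735 and 0.209 TPM) were the nearest genes by level.

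*Act5C* was the second most abundant actin gene in the control and the third in *bs* KD. It stood at 39.5 TPM in control IFM and 21.2 TPM in *bs* KD, from 1331 and 726 estimated reads. The ratio was 0.537 with a counting interval from 0.490 to 0.588, and the log2 change was −0.87. Relative to the shift it was −0.997, and scaling by the median ratio gave −0.991, so *Act5C* lies at the border of the 2-fold size. Of the 1549 genes with 10 to 100 TPM in the control, 8.52% were lower by 2-fold or more and 12.5% were higher, and 161 had a lower log2 change than *Act5C*. The mean effective length behind its values was 1860 bases in the control and 1877 bases in *bs* KD, close to each other. *Got2*, the mitochondrial aspartate aminotransferase gene (39.5 and 21.5 TPM), and *Pmi* (37.5 and 21.8 TPM) had the nearest levels. *Act42A*, the second cytoplasmic actin gene, did not share this difference. It stood at 11.002 TPM in control IFM and 12.1 TPM in *bs* KD, from 305 and 337 estimated reads, with a ratio of 1.10 and a counting interval from 0.937 to 1.29. Its log2 change of 0.13 was equal to the shift, and scaling by the median ratio left 0.01. *Dip-C* (11.2 and 11.9 TPM) and *Dgkepsilon* (10.98 and 12.4 TPM) had the nearest levels. Against *Act42A*, *Act5C* was lower by a factor of 2.05, with an interval from 1.70 to 2.46.

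**Figure D2:**
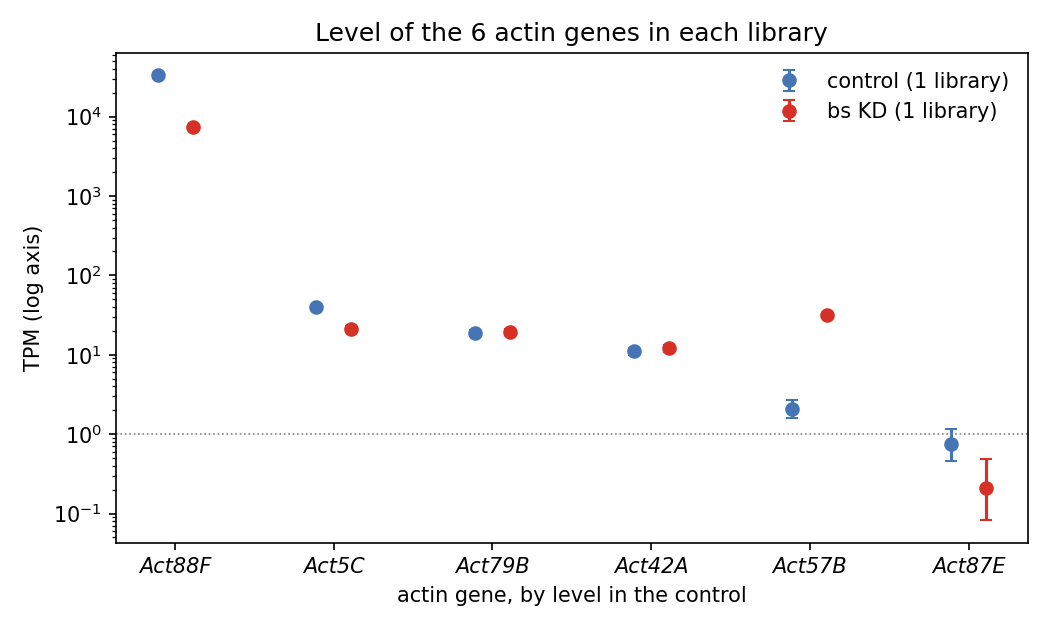
Level of each actin gene (vertical axis, TPM on a log axis) in the control library (blue) and the *bs* KD library (red), ordered by the control level. Bars are exact 95% Poisson intervals of the estimated reads (counting error only), each point is 1 library, and the dotted line marks 1 TPM. *Act88F* stands at 33116 and 7471 TPM, *Act57B* at 2.08 and 31.5 TPM, and the points of *Act79B* and of *Act42A* lie side by side.

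Cytoplasmic actin is made in all cells, and dissected flight muscle can carry other tissue, so the levels of marker genes stand beside those of *Act5C*. Of 37 markers of trachea, fat body, hemocytes, gut, neurons, glia and ovary, 20 were detected, with 7 lower and 3 higher by 2-fold or more. Over all detected genes these shares were 6.05% and 9.38%. Of the 6384 detected genes, 3064 had a log2 change below 0.04, the value of *Act79B*. All 5 tracheal markers had lower values in *bs* KD, 3 of them by 2-fold or more, with a summed level of 38.4 TPM in control IFM and 8.76 TPM in *bs* KD (*verm*, a chitin deacetylase gene, at 14.0 and 0.740 TPM, and *Gasp*, a chitin-binding protein gene, at 12.9 and 4.37 TPM). The counting interval of the tracheal marker *btl* (ratio 0.774, interval 0.566 to 1.06) includes no difference. The fat body list was split. Its summed level was 24.5 and 20.9 TPM, most of it from the yolk protein genes *Yp2* (13.2 and 10.4 TPM) and *Yp1* (4.35 and 9.31 TPM), while *Lsp2*, *Fbp1* and *Fbp2* were lower by 2-fold or more, at ratios of 0.166, 0.114 and 0.128. The summed levels were 4.47 and 3.71 TPM for hemocytes and 4.02 and 1.92 TPM for neurons. The gut sum was 6.86 and 8.96 TPM, with *betaTry* (0.0862 and 1.80 TPM) and *Jon65Aiv* (0.229 and 1.52 TPM) higher and *Vha100-4* (4.21 and 0.791 TPM) lower by 2-fold or more. The glial sum was 89.6 and 191.9 TPM, and *Gs2* (74.9 and 105.1 TPM) and *nrv2* (10.4 and 84.6 TPM) made nearly all of it. The other 3 glial markers had lower values in *bs* KD, with *moody* at 3.66 and 1.90 TPM, *repo* at 0.496 and 0.296 TPM and *alrm* at 0.190 TPM and listed at 0. Of these markers, those other than *verm*, *Gasp*, *Yp2*, *Gs2* and *nrv2* were named with their values in view. Of the ovary markers, *osk*, *bam* and *Cp36* were listed at 0 in both libraries, as was the gut marker *LManVI*, and all 4 are named here for that value. The part of these tissues in the *Act5C* difference was not tested.

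**Figure D3:**
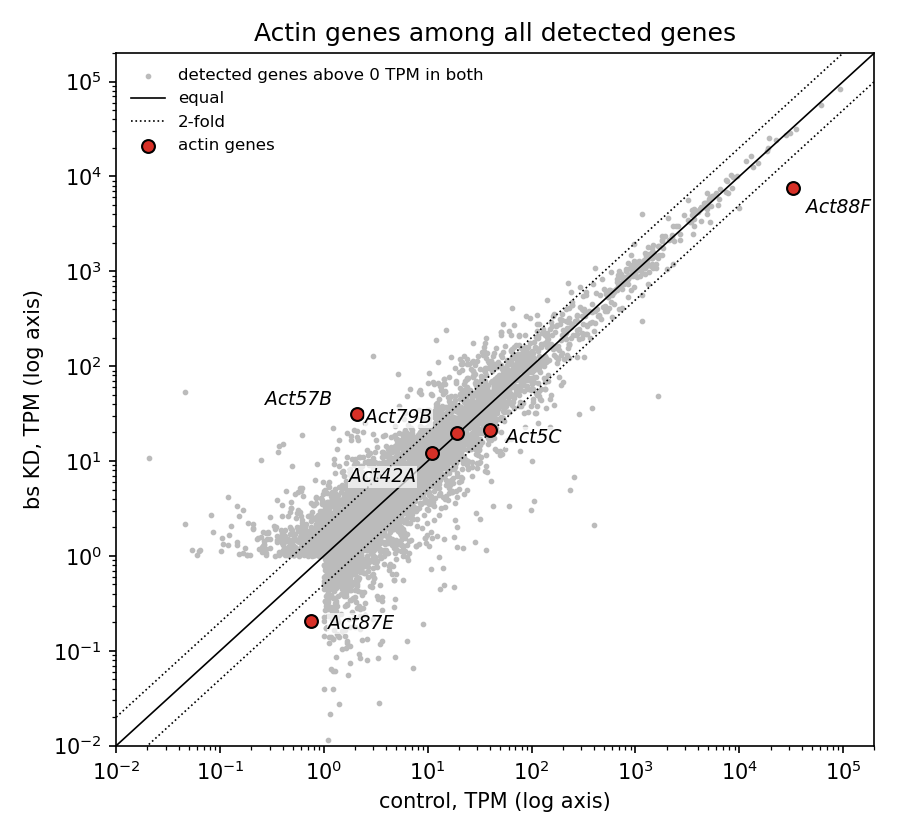
TPM in *bs* KD (vertical) against TPM in the control (horizontal), both on log axes, for every detected gene above 0 in both libraries (grey) and the 6 actin genes (red). The solid line marks equal levels and the dotted lines a 2-fold difference. *Act88F* lies below and *Act57B* above the 2-fold lines, *Act42A* and *Act79B* lie near the line of equal levels, and *Act87E*, which is under 1 TPM in both libraries, lies at the low end.

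The changes of the members were also compared with each other, which needs no scaling of the libraries. Of the 15 pairs, 12 had a ratio of changes whose counting interval left out 1. From the highest to the lowest ratio the order was *Act57B*, *Act42A*, *Act79B*, *Act5C*, *Act87E* and *Act88F*. The ratio of *Act57B* was 13.8 times that of *Act42A* (interval 10.2 to 19.1), the next in that order, and the ratio of *Act79B* was 1.92 times that of *Act5C* (1.65 to 2.25). The 3 pairs not told apart were *Act42A* and *Act79B* (1.06, interval 0.868 to 1.30), *Act5C* and *Act87E* (1.94, interval 0.694 to 5.51), and *Act87E* and *Act88F* (1.22, interval 0.434 to 3.41). In the last 2 pairs the interval rests on the few *Act87E* reads.

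The order of the levels also differed between the libraries. In the control it was *Act88F*, *Act5C*, *Act79B*, *Act42A*, *Act57B* and *Act87E*, and each gene stood above the next by more than counting error. The smallest of these steps was from *Act79B* to *Act42A*, with a ratio of 1.72 (interval 1.49 to 1.99). In *bs* KD *Act57B* stood directly below *Act88F*, 1.49 times above *Act5C* (interval 1.35 to 1.64). *Act5C* and *Act79B* were not told apart there, with a ratio of 1.08 and an interval from 0.967 to 1.22.

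**Figure D4:**
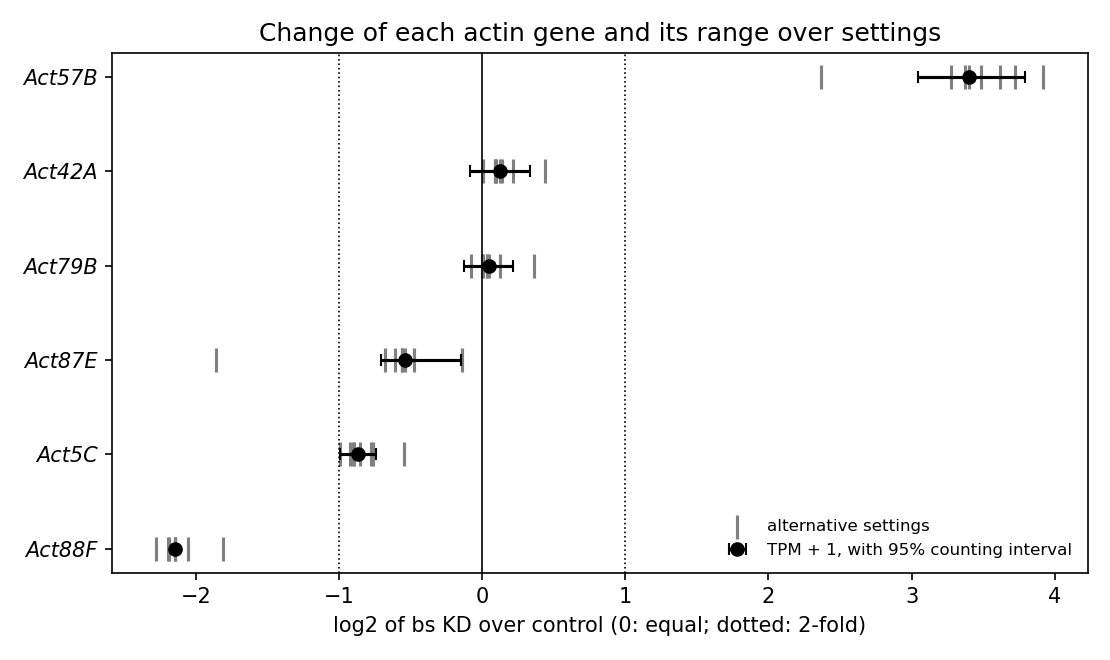
Log2 of *bs* KD over control for each actin gene (horizontal axis), with the value from TPM plus 1 as a black point, its 95% counting interval as a bar and the values under 8 alternative settings as grey ticks. Dotted lines mark a 2-fold difference. All settings place *Act88F* below −1 and *Act57B* above 2, while those of *Act79B* lie on both sides of 0.

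The summed level of the 6 genes, taken here as the actin pool, was 33188 TPM in control IFM and 7556 TPM in *bs* KD. The pool of *bs* KD was 22.8% of that of the control, with a counting interval of the ratio from 0.227 to 0.229. It made up 3.32% of all TPM in control IFM and 0.756% in *bs* KD. *Act88F* accounted for 99.8% of the pool in the control and 98.9% in *bs* KD, so the pool followed the level of this gene. The other 5 genes together made 0.218% of pool TPM in control IFM and 1.12% in *bs* KD. By estimated reads the shares were 0.246% (exact binomial interval 0.236 to 0.257%) and 1.22% (1.17 to 1.27%).

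The *Act88F* level was lower by 25644 TPM, and the genes that were higher added little against it. *Act57B* was higher by 29.4 TPM, which is 0.115% of the amount by which *Act88F* was lower. With *Act42A* and *Act79B* included the sum of the higher values was 31.1 TPM, or 0.121%, and with the lower values of *Act5C* and *Act87E* subtracted the net difference of the 5 genes was 12.3 TPM, or 0.0479%. Their summed level was 72.2 TPM in control IFM and 84.5 TPM in *bs* KD, a ratio of 1.17 (interval 1.10 to 1.24). For every 10000 *Act88F* transcripts there were 21.8 transcripts of the other 5 genes in control IFM and 113.1 in *bs* KD. This ratio was 5.19 times as high in *bs* KD, with an interval from 4.89 to 5.49.

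Within the 5 minor genes the make-up differed more than the sum. *Act57B* made 2.88% of their TPM in control IFM and 37.3% in *bs* KD, where it was the largest part. *Act5C* made 54.6% in control IFM and 25.1% in *bs* KD. The shares of *Act79B* (26.2% and 23.1%) and *Act42A* (15.2% and 14.3%) were nearer to each other. *Act87E* made 1.04% and 0.246%. By estimated reads, the exact binomial intervals of the *Act57B* share were 2.11 to 3.52% and 35.2 to 39.0%, those of *Act5C* 57.9 to 62.0% and 27.0 to 30.6%, and those of *Act42A*, which overlap, 12.3 to 15.2% and 12.1 to 14.8%. Grouped by kind, the muscle actins other than *Act88F* had 21.8 TPM in control IFM and 51.3 TPM in *bs* KD, a ratio of 2.36 (interval 2.14 to 2.59). The cytoplasmic actins had 50.5 and 33.3 TPM, a ratio of 0.659 (interval 0.610 to 0.712).

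**Figure D5:**
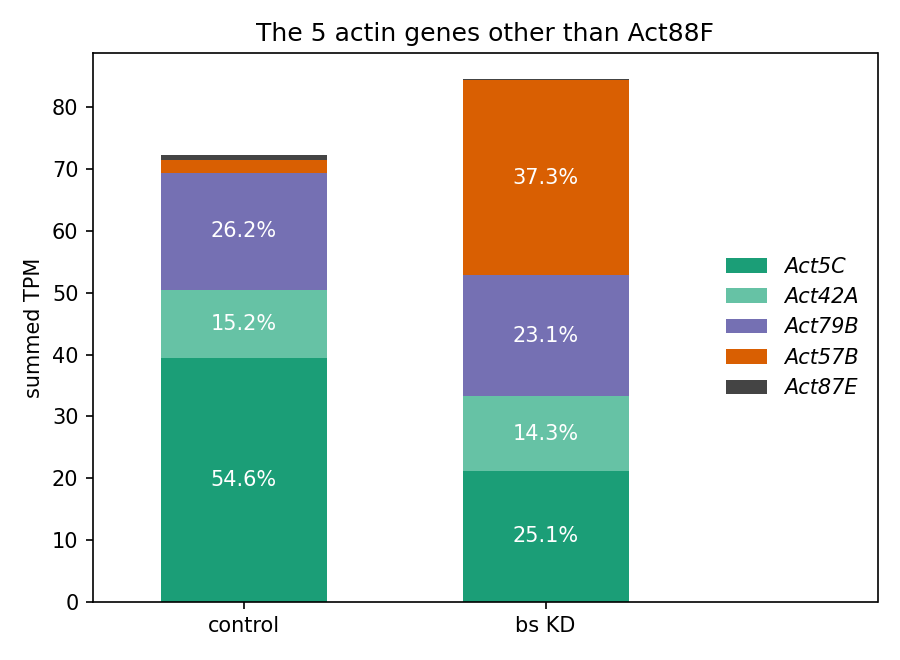
Summed TPM of the 5 actin genes other than *Act88F* in the control and *bs* KD libraries (stacked bars, 1 library each, axis from 0), with each gene's percent of the sum printed in its segment where it exceeds 5 TPM. The sums are 72.2 and 84.5 TPM, and the share of *Act57B* is 2.88% in the control, too small to be labelled, and 37.3% in *bs* KD.

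Actin was then set against the other proteins of the sarcomere in the same library. For each transcript of *Mhc*, the muscle myosin heavy chain gene, there were 5.26 transcripts of *Act88F* in the control and 1.496 in *bs* KD. *Mhc* itself stood at 6295 TPM in control IFM and 4993 TPM in *bs* KD, so relative to it *Act88F* was at 28.4% of the control. Relative to *Tm2* (tropomyosin, 4604 and 4733 TPM) the number of *Act88F* transcripts was 7.19 in the control and 1.58 in *bs* KD. Relative to *up* (troponin T) it was 4.42 and 0.813, and relative to *wupA* (troponin I) 3.98 and 0.726. Relative to *Mlc2*, a myosin light chain gene, it was 1.78 and 0.398. Relative to *fln* (flightin, a thick filament protein of flight muscle, 13111 and 16500 TPM) it was 2.53 and 0.453. *Act88F* thus had fewer transcripts than *up*, *wupA*, *Mlc2* and *fln* in *bs* KD, and more in the control. It had more than *Mhc* and *Tm2* in both libraries. Over these 6 partners the *bs* KD ratio was 17.9 to 28.4% of the control ratio. This range depends on the partners chosen. The tropomyosin gene *Tm1* was not among them, and its own level was lower in *bs* KD (5284 and 3277 TPM, ratio 0.620). Relative to *Tm1* the percent would be higher than this range. *Tm2*, *up*, *wupA*, *Mlc2* and *fln* were chosen with their values known.

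Genes whose products bind or build actin filaments were mostly near or above the control level. Over all detected genes, 6.05% were lower and 9.38% were higher by 2-fold or more. At these shares a short list holds few such genes, so a count of 0 lower says little about a list. Of 18 thin filament and Z-disc partners, 14 were detected, 0 were lower by 2-fold or more and 2 were higher (*TpnC41C* and *cpa*, a capping protein gene, at 7.61 and 17.5 TPM, chosen after its values were seen). Their median log2 change was 0.17, or 0.04 relative to the shift, and the median over all detected genes was 0.07. The lowest of them was the tropomyosin gene *Tm1* at −0.69 (5284 to 3277 TPM). Of the 6 contractile genes listed as enriched in flight muscle, 0 differed by 2-fold or more in either direction, with a median of 0.28, and the highest was *Mf*, the myofilin gene (196.1 to 354.7 TPM). How specific each listed gene is to flight muscle was not tested. Of 15 genes for handling actin monomers and turning over filaments, 14 were detected, 0 were lower by 2-fold or more and 3 were higher. The highest was *capt*, the cyclase-associated protein that recharges actin monomers (8.64 and 51.4 TPM, ratio interval 5.27 to 6.72), followed by *ssh*, the cofilin phosphatase gene (3.67 and 9.67 TPM), and *tsr*, the cofilin gene (76.1 and 168.5 TPM). *cib*, a gene for a protein with thymosin repeats that bind actin monomers, was lowest among those with 10 TPM or more (41.7 and 37.0 TPM). The formin genes *form3* (4.75 and 1.94 TPM, ratio 0.409, interval 0.346 to 0.480) and *DAAM* (0.914 and 0.249 TPM, ratio 0.272, interval 0.158 to 0.435) were lower by over 2-fold as plain ratios. *form3* did not reach that size with 1 TPM added, and *DAAM* was under the detection rule. *ssh*, *tsr*, *form3* and *DAAM* were picked out from their values.

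Of 15 genes for actin-related proteins and subunits of the Arp2/3 complex, 11 were detected, with a median of 0.54. Of these, 0 were lower by 2-fold or more and 2 were higher, against 6.05% and 9.38% of all detected genes. *Arpc1*, a subunit of Arp2/3, stood at 3.98 and 11.8 TPM. *Arpc3A*, another subunit chosen after its values were seen, stood at 4.93 and 11.1 TPM. *Arp1*, the actin-related protein of dynactin, was lowest among those with 10 TPM or more (18.2 and 25.0 TPM). Of the 11 detected genes, 8 had values above the control and 3 below. Among the 3 was *Arpc2*, a subunit chosen after its values were seen (4.01 and 2.76 TPM, ratio 0.687, interval 0.523 to 0.905). *Arp53D*, a further actin relative, was listed at 0 in both libraries. Of 6 regulators of actin transcription, *bs* included, all were detected, and 1 was lower by 2-fold or more. This was *salm*, a zinc-finger gene of flight muscle fate, at 16.8 and 6.31 TPM. *hth*, whose product with Exd is needed for flight muscle fate, had the highest change (9.60 and 13.2 TPM), and *Mrtf*, the gene for the SRF cofactor, stood at 6.07 and 2.95 TPM (ratio interval 0.430 to 0.550; chosen after its values were seen). *Mef2*, the gene for a general muscle transcription factor, stood at 54.9 and 37.5 TPM (ratio interval 0.649 to 0.720), and *exd* at 16.5 and 19.5 TPM, both named with their values in view. In all, 4 of the 6 regulators had values below the control: *bs*, the target of the knockdown, *Mrtf*, *salm* and *Mef2*. Only *salm* passed the 2-fold size with 1 TPM added, and *Mrtf* was lower by over 2-fold only as a plain ratio (0.487). The median log2 change of the list was −0.48, or −0.61 relative to the shift, against 0.07 over all detected genes. Of the 6384 detected genes, 3064 had a log2 change below 0.04, the value of *Act79B*. The part of these regulators in the *Act88F* level was not tested.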

How the data were processed

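Polyadenylated RNA of flight muscle was sequenced as single-end reads of 100 bases on an Illumina instrument, with 1 library per genotype. Quantification by the authors was run in Salmon on the Galaxy platform, with genome release 6.21 as the reference. For the Salmon version the sources used here give no value. The deposited table holds TPM and estimated counts (reads) per gene and library, as Salmon gives them, and TPM sums to 1000000 in each library. Estimated counts were rounded to whole numbers for the intervals. The authors' own DESeq2 columns (mean, log2 fold change, error, p-value) were not used. All per-sample columns were mapped (0 left out).

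The listed gene lengths were checked: the effective length, TPM and reads agreed within 1% for 99.8% of genes with 1 annotated transcript and at least 100 reads in the control, but for 6.74% of those with several. The length implied by TPM and reads was therefore used. This affects neither TPM nor ratios of TPM.

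Symbols of 13842 genes came from a separate list of gene names. The coordinates came from the annotation BDGP6.54 of the same assembly (Ensembl release 115). Both were matched by identifier. The change of a gene was the difference of log2(TPM + 1) between *bs* KD and control, with 2-fold as the size counted and 1 TPM for detection. Intervals (95%) were Poisson for levels, Clopper-Pearson for shares and conditional binomial for ratios; for pairs with *Act88F* they cover the less abundant gene. With 1 library per genotype there were no tests. Genes named were the members, *bs*, *Mhc*, the 2 genes nearest each member by level, and the highest and lowest member of each list among genes with 10 TPM or more; other names are marked. The members and lists were chosen with earlier results of these data known. Shared sequence, protein identity and promoter motifs of the actin genes were not analysed here. The steps were run in Python 3.11.15 with pandas 2.3.3 and scipy 1.17.1. Of these steps, only the ratio interval and the log2 change were tested on simulated data, which held counting noise alone. Alternatives covered the pseudocount, the scaling, the lengths and the detection rule.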

Additional observations from a re-analysis of the deposited data

How the results depend on the processing

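No paired analysis was possible because each genotype has 1 library, and leaving out a library was not possible for the same reason. Over 68 alternative values, 45 stayed within the counting interval of the main value (counts of genes: within 1.5 times) and 23 moved. The log2 change of *Act88F* was −2.28 with scaling by the median of ratios, −2.19 with the actin genes left out of the total, −2.19 with the mitochondrial genome (13 genes, 28.5% of control TPM) left out, −2.05 with reads per 1000000 and −1.81 relative to *Mhc*. For *Act57B* it was 3.92 with no pseudocount and 2.37 with a pseudocount of 5 TPM, and for *Act87E* −1.86 and −0.14, so the *Act87E* value was lower by over 2-fold only with no pseudocount. Relative to *Mhc*, the log2 change was 0.36 for *Act79B*, −0.55 for *Act5C* and 0.44 for *Act42A*. The pool ratio was 0.208 with the median of ratios, 0.222 without the actin genes in the total, 0.221 without the mitochondrial genome, 0.287 relative to *Mhc* and 0.243 with reads per 1000000. The share of *Act88F* by reads was 99.8% in control IFM and 98.8% in *bs* KD. The genes lower by 2-fold or more numbered 386, or 169 with detection at 10 TPM and 966 at a size of 1.5-fold. The genes higher numbered 599, or 368 and 1358. Scaling by the median of ratios gave 448 lower and 465 higher, which nearly evens the directions. Depth limits *Act87E* (5.58 estimated reads in *bs* KD). Between flies and between dissections the spread is unknown.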
